A study of Mus musculus with 14 samples.

Results

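Nodal, Gdf3, Tdgf1, Acvr2b, Lefty1, Lefty2 and Cer1, which encode the Nodal signal, its co-receptor, a receptor and its secreted inhibitors, were followed over the 14 arrays of a mouse reprogramming series. The 7 genes were chosen by symbol, with earlier results of these data known. They are 7 of 18193 genes that the platform's annotation ties to a probe set of their own, and they had 12 of the 34945 probe sets that carry exactly 1 gene. Gdf3, Lefty1 and Lefty2 were 3.37 to 5.96 log2 units higher in both groups of fully pluripotent cells than in untreated partial cells, Nodal passed the test as higher in 1 of these groups, Tdgf1 was high in every partial and pluripotent culture, and Cer1 was near background everywhere.

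Nodal and Gdf3 are secreted ligands of the TGF-beta superfamily that use Cripto, the product of Tdgf1, as a co-receptor at the cell surface. The complex signals through type I receptors and type II receptors such as Acvr2b, and the activated SMAD2 and SMAD3 proteins act with SMAD4 and partners such as FOXH1 on target genes. Lefty1 and Lefty2 are targets of the pathway that block it from outside the cell, and Cer1 encodes Cerberus, a secreted protein that binds Nodal. In the mouse embryo the pathway acts in the epiblast and in setting the body axes, and ESCs express several of its genes.

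The study asked how partial induced pluripotent stem cells (partial iPSCs), which are reprogrammed cells that stopped short of pluripotency, differ from cells that completed the process. The 2i iPSCs were clones 2B1 and 5C5 after conversion under 2i, a culture medium in which MEK and GSK3 are inhibited, 1 array per clone. The ESCs were the Nanog-GFP line (male, C57BL/6, from blastocysts of transgenic mice) and EBRTcH3 (male, 129sv, wild type), 1 array per line, grown with serum and LIF. Fibroblasts from Nanog-GFP mouse embryos (MEFs), of mixed sex and grown without LIF, gave 1 array, with the embryo's age as 12.5 dpc in the sample title and 13.5 dpc in the series text. The untreated partial iPSCs were the same clones 2B1 and 5C5 (female, C57BL/6) in LIF and serum, 1 array per clone. A further 7 arrays, 1 per condition, held 2B1 cells in LIF and serum that carried Cnot1, Cnot2 or Cnot3 (subunits of the Ccr4-Not deadenylase), all 3 together (the Cnot123 array), Trim28 (a corepressor), Nanog, or empty vector. The 3 groups with 2 arrays each are sets of separate clones or lines, so a p-value reflects how much clones or lines vary, and the small number of arrays limits the precision. In comparisons of the clones with ESCs, sex, and for EBRTcH3 also strain, differed along with cell state and cannot be told apart from it. The same holds for 2i treatment where 2i iPSCs are set against ESCs.

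All values are log2 RMA signal, on which a difference of 1 is 2-fold, and no probe set's level is set against another's. The 7 transduced arrays had lower overall values than the other 7 (array means of 5.87 to 5.88 against 6.09) and were treated as separately normalized. Labels were checked on marker genes: Nanog was at 12.38 and 12.57 in 2i iPSCs, 13.12 and 12.54 in ESCs, 3.72 in MEFs, and 3.85 and 4.36 in untreated partial iPSCs. Of 7 naive and core pluripotent markers, 6 with Nanog among them passed as higher in 2i iPSCs than in untreated partial iPSCs. Pou5f1 went the other way and passed as lower (-1.36, limma adjusted p = 0.0233). In ESCs the same 6 passed as higher and Pou5f1 as lower (-0.86, limma adjusted p = 0.0407). Of all tested genes, 3.55% and 6.09% passed as higher in these comparisons, and 2.46% and 9.82% as lower. The summed level of 8 fibroblast markers was 80.1 and 81.5 in 2i iPSCs, 37.3 and 36.7 in ESCs, 100.9 in MEFs, and 76.4 and 72.9 in untreated partial iPSCs. Of these 8 markers, 3 (Nanog-GFP) and 2 (EBRTcH3) were below the 25th percentile of the ESC arrays and 0 on each of the others of these 7 arrays. Both 2i sums lay above both untreated sums, with a median difference of 1.0 over the 8 markers, and Col1a2 alone passed as higher in 2i iPSCs (1.5, limma adjusted p = 0.0376), while all 8 passed as lower in ESCs. The part of fibroblast transcripts in the 2i differences given here was not tested.

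On the transduced arrays, the introduced genes did not stand above the empty vector array. The array labelled Nanog had Nanog at 3.12 against 4.11 with empty vector, and the array labelled Trim28 differed by -0.33 and -0.01 on its probe sets. Cnot1 differed by 0.06 and 0.18 on the array labelled with it, on probe sets shared with Gm6158, and Cnot2 and Cnot3 by -0.32 to 0.30 on theirs. The positions of the probes are not given here, and probes outside an introduced cDNA would not register it. Over 385 genes at least 4-fold apart between the untreated clones, the empty vector array was nearer 5C5 at 76.1% and the array labelled Nanog at 66.8%, although both are labelled 2B1. The arrays labelled Cnot1, Cnot2, Cnot3 and Cnot123 were nearer 2B1 at 91.9%, 75.1%, 79.7% and 88.3%, and the array labelled Trim28 at 49.1%.

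Promoters of 4 of the 7 genes (Nodal, Tdgf1, Acvr2b and Cer1) were matched in RefSeq's table for build GRCm38.p6, each covering 250 bases before to 50 after the start of the gene. Those of Nodal and Tdgf1 are shown as those of a ligand that passed as higher in ESCs than in untreated partial iPSCs and of its co-receptor, which did not pass. Capitals mark every match, on either strand, to CAGAC (a SMAD element), AATNCACA (FOXH1), ATGCAAAT (the octamer) or GGGNGTGG (a KLF element).
Nodal promoter, chr10:61417722-61418021, + strand: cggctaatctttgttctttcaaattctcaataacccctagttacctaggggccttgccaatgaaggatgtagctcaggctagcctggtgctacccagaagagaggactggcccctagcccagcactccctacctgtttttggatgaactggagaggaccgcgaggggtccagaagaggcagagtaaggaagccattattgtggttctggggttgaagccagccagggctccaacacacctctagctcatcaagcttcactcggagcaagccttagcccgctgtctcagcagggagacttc
Tdgf1 promoter, chr9:110946109-110946408, - strand: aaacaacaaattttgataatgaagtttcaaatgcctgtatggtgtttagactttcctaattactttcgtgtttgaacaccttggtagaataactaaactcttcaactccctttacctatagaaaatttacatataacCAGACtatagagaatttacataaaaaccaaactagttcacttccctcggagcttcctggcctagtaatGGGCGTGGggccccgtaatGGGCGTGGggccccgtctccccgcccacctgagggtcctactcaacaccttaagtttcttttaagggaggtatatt
The Tdgf1 window held 1 SMAD element, at position -113 from the start of the gene, and 2 copies of the KLF element, at -45 and -26. None of these elements was in the Nodal window, and the windows of Acvr2b and Cer1 held 1 SMAD element each. Over 32851 promoters of this length, 49.6% held the SMAD element, 3.6% the FOXH1 element, 1.7% the octamer and 17.6% the KLF element. These are matches of letters only.

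Nodal, the founding ligand of the pathway, was at 8.80 (2B1) and 9.72 (5C5) in 2i iPSCs, 10.82 (Nanog-GFP) and 10.37 (EBRTcH3) in ESCs, 5.07 in MEFs, and 6.83 (2B1) and 8.22 (5C5) in untreated partial iPSCs. The groups of pluripotent and partial cells did not overlap, and the partial clones themselves were 1.39 apart. Group means were 9.26 ± 0.65 in 2i iPSCs, 10.59 ± 0.31 in ESCs and 7.53 ± 0.98 in untreated partial iPSCs (SD, n = 2 each). The difference of 1.74 between 2i iPSCs and untreated partial iPSCs (SE 0.56) did not pass the limma test (adjusted p = 0.142). With the clone as a replicate block it passed (adjusted p = 0.0431), with a difference of 1.97 in clone 2B1 and 1.5 in clone 5C5. Nodal was 3.07 higher in ESCs than in untreated partial iPSCs (SE 0.56, adjusted p = 0.0244). That call was lost in 6 of 13 alternatives, over all of which the difference ran from 2.37 to 3.76. These were the fits without untreated 2B1, without either ESC line, without either 2i array and with the 4 compared arrays alone (limma adjusted p = 0.0569). Leaving out either 2i array gives the same fit as the 4 compared arrays alone, so these alternatives are not separate. The other Nodal probe set ran in the same order on these 7 arrays, with differences of 1.73 (adjusted p = 0.15) for 2i iPSCs and 3.09 (adjusted p = 0.0237) for ESCs against untreated partial iPSCs. The summed level of 5 primed epiblast markers was 31.9 and 35.6 in 2i iPSCs, 35.1 and 37.2 in ESCs, 20.5 in MEFs, and 25.7 and 28.3 in untreated partial iPSCs, and its part in the Nodal levels was not tested. In bulk RNA, fewer cells that express a gene and less of its RNA per cell cannot be told apart.

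Gdf3, a ligand that is expressed in ESCs and the early epiblast, had the largest fitted difference of the 6 tested genes between pluripotent and partial cells, on the brighter of its probe sets. Levels were 10.18 and 10.16 in 2i iPSCs, 10.75 and 10.45 in ESCs, 4.64 in MEFs, and 4.84 and 4.43 in untreated partial iPSCs. Both partial clones were at the fibroblast level, and every pluripotent array was more than 5 log2 units higher. The difference from untreated partial iPSCs was 5.53 for 2i iPSCs (SE 0.23, limma adjusted p = 0.00119) and 5.96 for ESCs (SE 0.23, adjusted p = 0.000583). A dimmer Gdf3 probe set gave 3.34 (adjusted p = 0.0106) and 3.73 (adjusted p = 0.00337), so the size of the fold, and its rank beside those of the Lefty genes, depended on the probe set and its direction did not. Gdf3 kept its call in all 14 alternatives for 2i iPSCs and all 13 for ESCs.

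**Figure D1:**
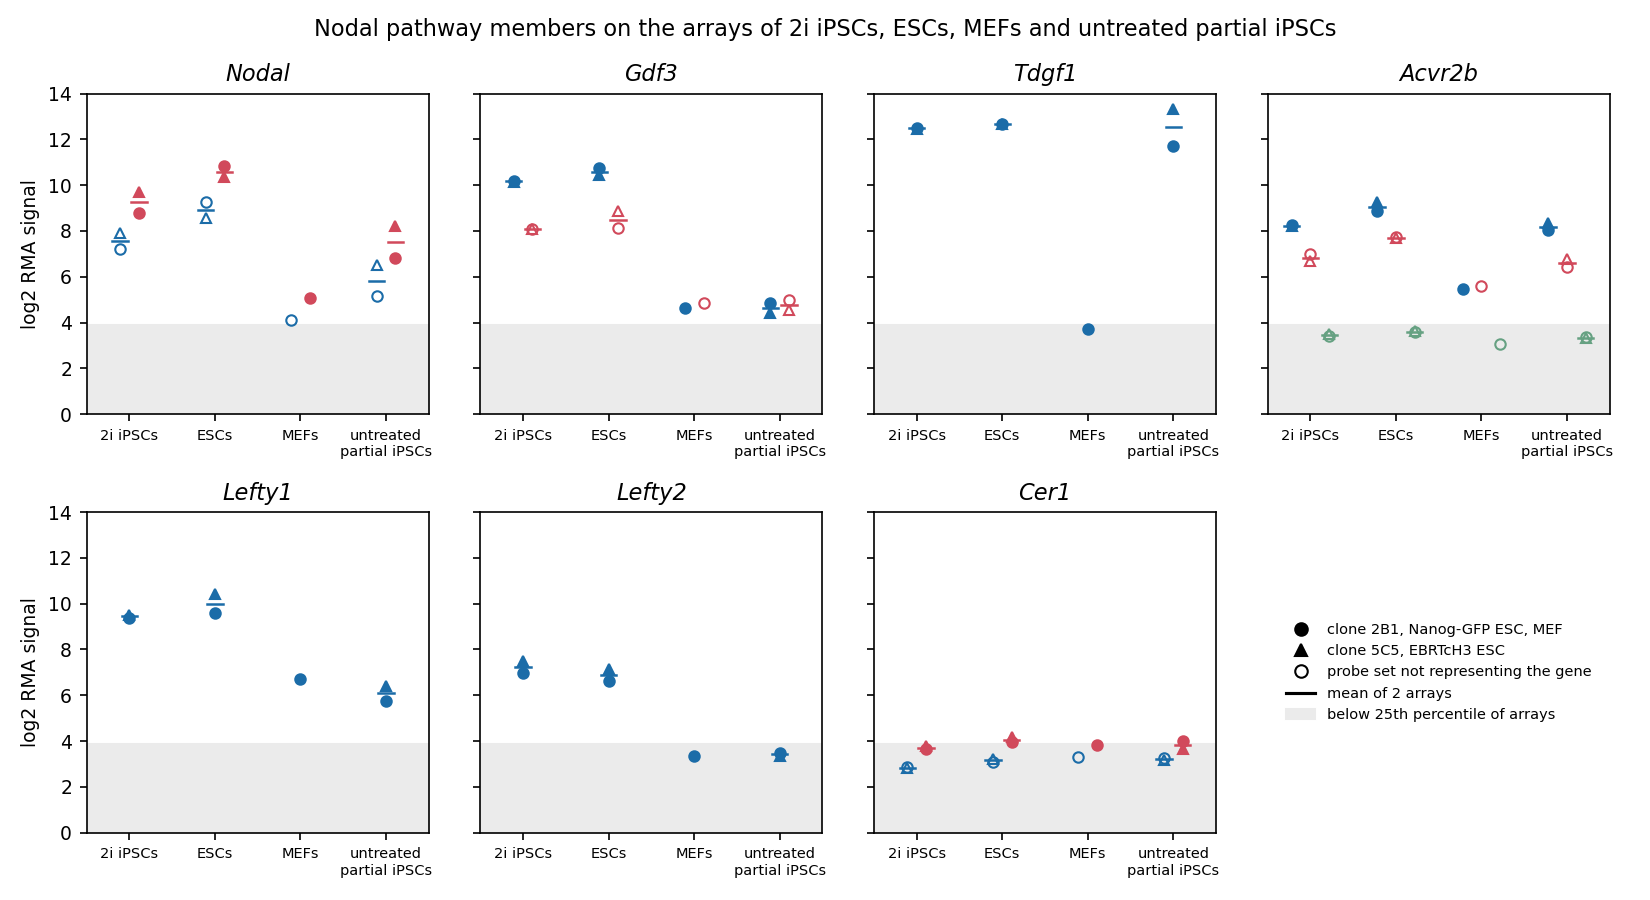
Level of each of the 7 genes (log2 RMA signal, vertical axis) in 2i iPSCs, ESCs, MEFs and untreated partial iPSCs. Each point is 1 array, open points and further colours are further probe sets of the gene, lines are means of 2 arrays, and the grey band lies below the 25th percentile of the arrays. Nodal, Gdf3, Lefty1 and Lefty2 are higher in both pluripotent groups than in both partial clones, Tdgf1 is high everywhere except in MEFs, and Cer1 lies in or next to the grey band.

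Tdgf1, which encodes Cripto, was at 12.50 and 12.47 in 2i iPSCs, 12.69 and 12.67 in ESCs, 3.74 in MEFs, and 11.73 (2B1) and 13.34 (5C5) in untreated partial iPSCs. The partial clones thus lay on either side of all 4 pluripotent arrays, and the MEF array was below its 25th percentile. The mean differences from untreated partial iPSCs were -0.05 for 2i iPSCs (95% interval -1.39 to 1.28, limma adjusted p = 0.966) and 0.14 for ESCs (interval -1.19 to 1.48, adjusted p = 0.876). These intervals allow changes of more than 2-fold in either direction. Under 2i, Tdgf1 was 0.77 higher in clone 2B1 and 0.88 lower in clone 5C5.

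Acvr2b, a type II receptor for activins and Nodal, was at 8.24 and 8.21 in 2i iPSCs, 8.87 and 9.25 in ESCs, 5.48 in MEFs, and 8.05 and 8.33 in untreated partial iPSCs. The 2i values lay inside the range of the partial clones, and both ESC lines lay above it. The difference for 2i iPSCs was 0.03 (95% interval -0.54 to 0.60, limma adjusted p = 0.949). ESCs were 0.87 above untreated partial iPSCs (interval 0.30 to 1.44), which did not pass (adjusted p = 0.0594). It did pass in 4 of 13 alternatives, with the lowest adjusted p of 0.042 from the mean of its probe sets and 0.0433 without the Nanog-GFP ESCs, and on a further Acvr2b probe set fitted as a row of its own (1.11, adjusted p = 0.0333). The third probe set stayed below the 25th percentile on all 14 arrays.

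Among the inhibitors, Lefty1 was at 9.38 and 9.52 in 2i iPSCs, 9.59 and 10.40 in ESCs, 6.70 in MEFs, and 5.75 and 6.41 in untreated partial iPSCs. Lefty2 was at 6.96 and 7.51 in 2i iPSCs, 6.64 and 7.16 in ESCs, 3.36 in MEFs, and 3.5 and 3.35 in untreated partial iPSCs. All pluripotent arrays lay above all MEF and partial arrays for both genes, and the Lefty2 values of MEFs and partial cells were below the 25th percentile of their arrays, so the fold of Lefty2 depends on the background.

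Lefty1 was 3.37 higher in 2i iPSCs than in untreated partial iPSCs (SE 0.37, limma adjusted p = 0.0139) and 3.92 higher in ESCs (SE 0.37, adjusted p = 0.00399). Lefty2 was 3.81 higher in 2i iPSCs (SE 0.29, adjusted p = 0.00613) and 3.47 higher in ESCs (SE 0.29, adjusted p = 0.00312). The 2i calls rested on both 2i arrays: leaving out 2B1 or 5C5 gave an adjusted p of 0.122 or 0.132 for Lefty1 and of 0.0524 or 0.0687 for Lefty2, with differences of 3.30 to 4.08 in these fits. The ESC calls of both genes held in all 13 alternatives. The summed level of 10 primitive and visceral endoderm markers was 64.7 and 59.9 in 2i iPSCs, 54.5 and 50.1 in ESCs, 57.9 in MEFs, and 54.1 and 51.3 in untreated partial iPSCs. Of the 9 tested, 1 (Afp) passed as higher in 2i iPSCs than in untreated partial iPSCs (1.13, limma adjusted p = 0.0486) and 0 as lower. Dab2 differed by -0.18. In ESCs 0 passed as higher and 1 (Dab2) as lower. Of all tested genes, 3.55% passed as higher in 2i iPSCs and 9.82% as lower in ESCs. The sums of the 2i iPSCs were the highest of these 7 arrays and those of the ESCs were not above the MEF sum, and the part of these markers in the Lefty levels was not tested. Lefty1 and Lefty2 lie close together on chromosome 1 in the RefSeq gene order.

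Cer1 was not tested, because its brighter probe set stayed below the median of the table on every array. That probe set read 3.66 and 3.77 in 2i iPSCs, 3.96 and 4.16 in ESCs, 3.85 in MEFs, and 4.01 and 3.67 in untreated partial iPSCs, and the other was below the 25th percentile on all 14 arrays. These values are near background, and the partial clones overlapped both pluripotent groups. In a fit without the filter, Cer1 differed from untreated partial iPSCs by -0.12 in 2i iPSCs (limma adjusted p = 0.792) and by 0.23 in ESCs (adjusted p = 0.48).

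Counted over the 6 genes tested, 3 (Gdf3, Lefty1 and Lefty2) passed as higher in 2i iPSCs than in untreated partial iPSCs and 0 as lower, where 3.55% of all 12663 tested genes passed as higher and 2.46% as lower. At an unadjusted p below 0.05 the count was 4 higher and 0 lower. In the limma comparisons here and below, shares of all tested genes are of adjusted calls, and shares at the unadjusted cut-off are not given. In ESCs, 4 passed as higher (Nodal, Gdf3, Lefty1 and Lefty2) and 0 as lower, against 6.09% of all tested genes as higher and 9.82% as lower, and the unadjusted count was 5 higher and 0 lower. The median difference of the 6 genes was 2.55 for 2i iPSCs and 3.27 for ESCs, beside medians of 0.03 and 0.0 over all tested genes. Both comparisons use the same untreated arrays. The genes were chosen with earlier results of these data known, and Lefty2 met the filter only through the pluripotent arrays. The counts and medians are therefore descriptions beside the shares of all genes and no test of the set.

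Set directly against ESCs, 0 of the 6 genes passed as higher or lower in 2i iPSCs by limma, where 3.69% of all tested genes passed as higher and 0.158% as lower, and 1 (Acvr2b, lower) had an unadjusted p below 0.05. The differences were -1.33 for Nodal (95% interval -2.75 to 0.08, adjusted p = 0.344), -0.84 for Acvr2b (interval -1.40 to -0.27, adjusted p = 0.149) and -0.55 for Lefty1 (adjusted p = 0.549). Gdf3 differed by -0.43 (adjusted p = 0.463), Tdgf1 by -0.19 (adjusted p = 0.9) and Lefty2 by 0.34 (adjusted p = 0.647). The interval for Nodal reaches from near equality to a level more than 4-fold lower in 2i iPSCs, so likeness between these groups is not shown.

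**Figure D2:**
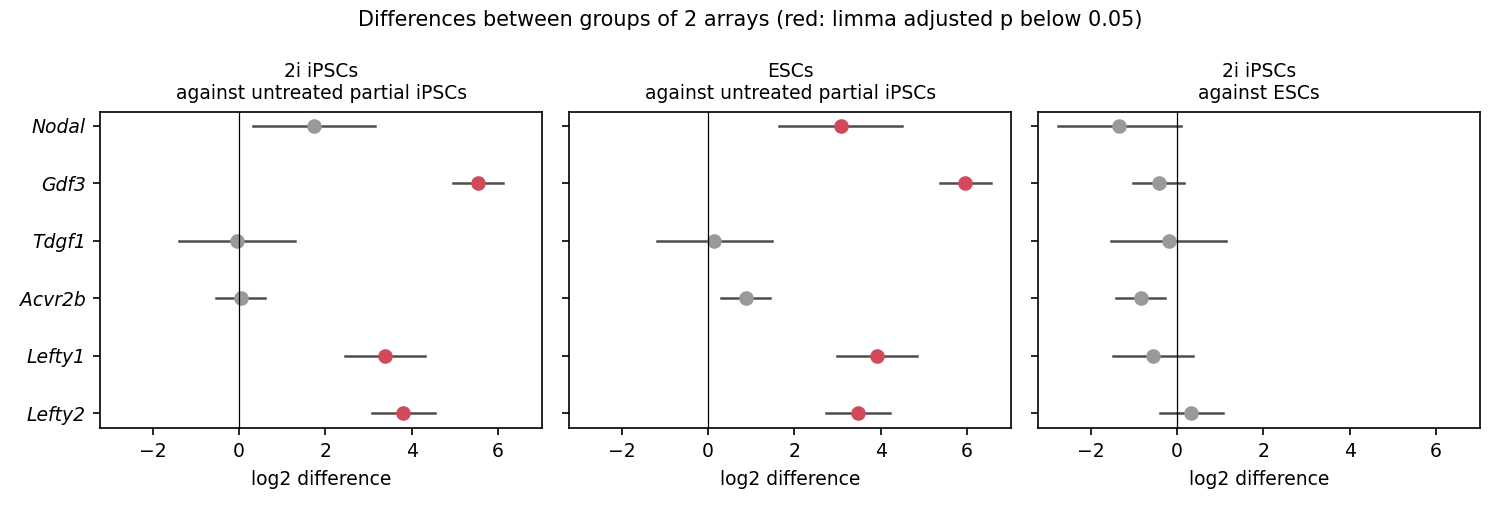
Log2 differences (horizontal axis) of the 6 tested genes in the 3 comparisons of groups with 2 arrays each; points are differences of means, bars are 95% intervals and red marks a limma adjusted p below 0.05. Gdf3, Lefty1 and Lefty2 are far right of 0 in both comparisons with untreated partial iPSCs (3.37 to 5.96), while Tdgf1 lies near 0 with wide bars. Against ESCs, 2i iPSCs had no gene in red.

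The rest of the pathway was followed with a list of 46 genes, of which 32 were tested, 10 were dim and 4 were not analysed here. In 2i iPSCs, 2 of the 32 passed as higher than in untreated partial iPSCs and 0 as lower by limma, with a median difference of 0.08. Of all tested genes, 3.55% passed as higher and 2.46% as lower. At an unadjusted p below 0.05 the counts among the 32 were 9 higher and 3 lower. The shares above are of adjusted calls, so they are no background for these unadjusted counts. Foxh1, the DNA-binding partner of the SMADs, was at 8.48 and 8.38 in 2i iPSCs, with ESCs at 8.26 and 8.78, against 7.03 and 6.62 in untreated partial iPSCs. Smad7, an inhibitory SMAD induced by the pathway, was at 8.60 and 8.79 in 2i iPSCs, with ESCs at 8.95 and 8.90, against 7.18 and 7.59 in untreated partial iPSCs. For both genes every pluripotent array lay above both partial clones. MEFs were at 6.16 in Foxh1 and at 8.82 in Smad7, so a high Smad7 was shared by MEFs and pluripotent cells.

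Foxh1 was 1.60 higher in 2i iPSCs (adjusted p = 0.0359) and 1.69 higher in ESCs (adjusted p = 0.017) than in untreated partial iPSCs, and Smad7 was 1.31 (adjusted p = 0.036) and 1.54 higher (adjusted p = 0.0129). These calls were less firm than those of Gdf3: the 2i calls of both genes were lost without any 1 of the 4 compared arrays, with an adjusted p of 0.0591 to 0.279 over these fits. Foxh1 also lost its 2i call with the mean of its probe sets (adjusted p = 0.0521), and its probe set of the smallest difference gave 0.74 (adjusted p = 0.208). Smad7 also lost its 2i call with the clone as a replicate block (adjusted p = 0.0533). The ESC calls of both were lost with the 4 compared arrays alone (limma adjusted p = 0.0645 for Foxh1 and 0.054 for Smad7). Leaving out either 2i array gives that same fit. The ESC call of Foxh1 was also lost without untreated 5C5.

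In ESCs against untreated partial iPSCs, 3 of the 32 genes passed as higher (Foxh1, Smad7 and Tgif1) and 5 as lower (Inhba, Tgfb3, Tgfbr2, Furin and Smad3), where 6.09% of all tested genes passed as higher and 9.82% as lower, and the median difference was 0.07. The other tested ligands and receptors (Gdf11, Inhbb, Inha, Tgfb2, Acvr1b, Acvr2a and Tgfbr1) did not pass. Tgfbr2, the type II receptor for TGF-beta, was at 8.75 and 8.94 in 2i iPSCs, 4.80 and 4.47 in ESCs, 11.07 in MEFs, and 9.77 and 9.97 in untreated partial iPSCs. Tgfb3, a TGF-beta ligand, was at 7.30 and 7.10 in 2i iPSCs, 3.55 and 3.90 in ESCs, 11.25 in MEFs, and 7.61 and 7.06 in untreated partial iPSCs. On these probe sets the 2i iPSCs lay nearer the partial cells than the ESCs. A dimmer Tgfbr2 probe set went against this, with means of 5.53 in 2i iPSCs, 5.48 in ESCs and 7.18 in untreated partial iPSCs.

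Tgfbr2 was 5.23 lower in ESCs than in untreated partial iPSCs (difference -5.23, adjusted p = 0.000671), and Tgfb3 differed by -3.61 (adjusted p = 0.00244), a size that depends on the background, since Tgfb3 in ESCs was near or below the 25th percentile. The dimmer Tgfbr2 probe set differed by -1.70 (adjusted p = 0.0603), and the mean of the gene's probe sets by -2.29 (adjusted p = 0.00404). Inhba, which encodes the activin A subunit, differed by -1.57 (adjusted p = 0.0116). Set against ESCs, 2i iPSCs were higher in the same 3 genes and in no other of the 32, by 4.21 for Tgfbr2 (adjusted p = 0.00227), 3.48 for Tgfb3 (adjusted p = 0.00477) and 1.85 for Inhba (adjusted p = 0.0145). On the dimmer Tgfbr2 probe set the groups differed by 0.045 (adjusted p = 0.975), and as the mean of its probe sets Tgfbr2 differed by 1.45 (adjusted p = 0.0311). None of the 32 passed as lower, where 3.69% of all tested genes passed as higher and 0.158% as lower. At an unadjusted p below 0.05, for which no share of all tested genes is given, 6 of the 32 were higher and 2 lower. The median difference over the 32 was 0.17 beside 0.0 over all tested genes. These 3 calls were lost without either 2i array, with an adjusted p of up to 0.0594 for Tgfbr2, 0.0841 for Tgfb3 and 0.172 for Inhba, and that of Inhba also with the mean of its probe sets (0.98, adjusted p = 0.0515). All 8 fibroblast markers likewise passed as higher in 2i iPSCs than in ESCs, with summed levels of 80.1 and 81.5 against 37.3 and 36.7, and their part in these 3 genes was not tested.

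Smad3, a signal-carrying SMAD, differed by -1.93 between ESCs and untreated partial iPSCs (adjusted p = 0.0133), or by -1.09 as the mean of its probe sets, and Furin, a convertase that cleaves Nodal precursor, by -1.68 (adjusted p = 0.0121). Tgif1, a corepressor of SMAD2 and SMAD3, was 1.56 higher in ESCs (adjusted p = 0.0207). All 3 lost their calls with the 4 compared arrays alone, which is the same fit as without either 2i array. They also lost them without untreated 2B1, and Smad3 without untreated 5C5. Over the 13 alternatives the differences ran from -2.26 to -1.09 for Smad3, -1.92 to -1.45 for Furin and 1.29 to 1.82 for Tgif1.

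**Figure D3:**
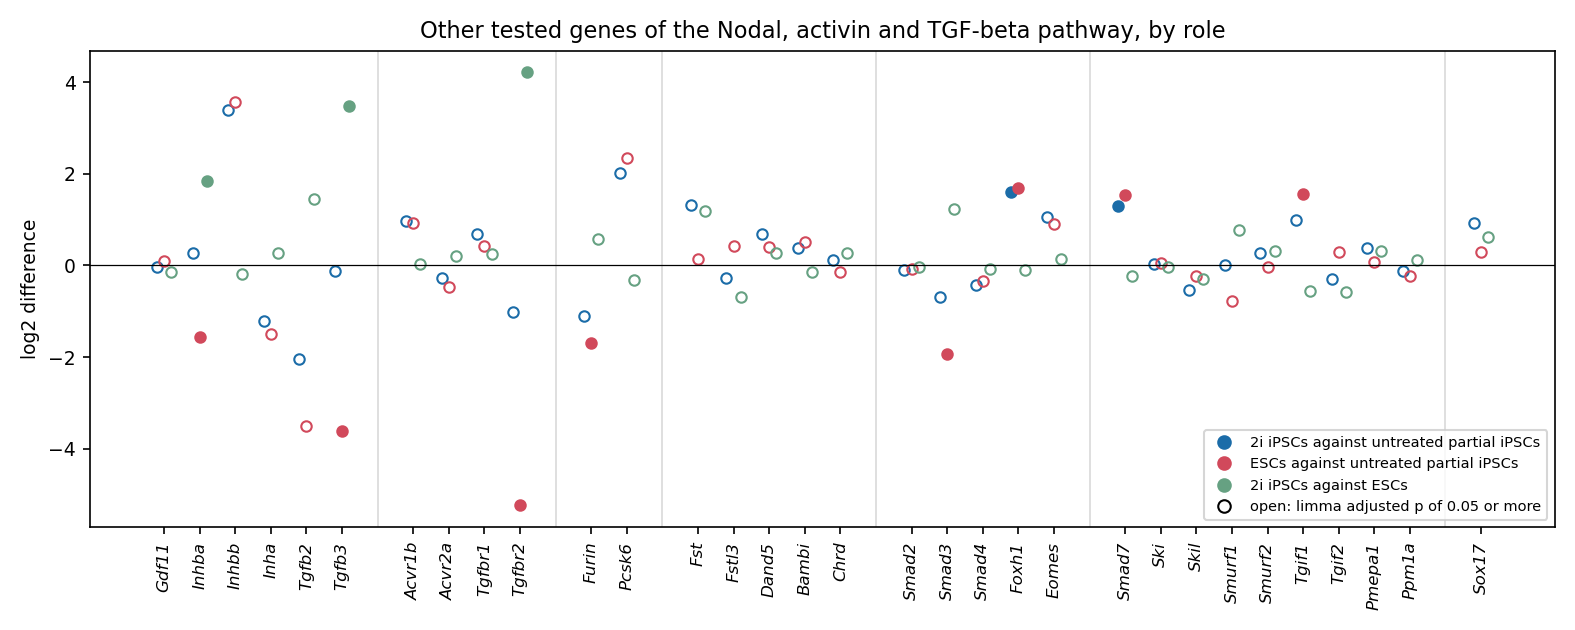
Log2 differences (vertical axis) of the 32 other tested pathway genes, each on its brightest probe set, ordered by role from ligands at the left to a target at the right; filled points have a limma adjusted p below 0.05. Tgfb3 and Tgfbr2 are filled far below 0 for ESCs against untreated partial iPSCs (-3.61 and -5.23) and far above 0 for 2i iPSCs against ESCs (3.48 and 4.21), and Foxh1 and Smad7 are filled in both comparisons with untreated partial iPSCs.

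The fibroblast array has no replicate, so differences are given from each partial clone and counted where both reach 2-fold. Tdgf1, at background in MEFs, was far below untreated 2B1 and 5C5 (differences of -7.98 and -9.60, whose size depends on the background), Acvr2b differed by -2.57 and -2.85, and Nodal by -1.76 and -3.15. These 3 of the 6 genes counted as lower and 0 as higher, where 11.3% of all tested genes counted as lower and 9.9% as higher. On a further Acvr2b probe set the differences were -0.86 and -1.18, so the count of Acvr2b as lower depended on the probe set. Gdf3 differed by -0.21 and 0.21 and Lefty2 by -0.15 and 0.01, while Lefty1 was 0.95 and 0.29 higher in MEFs. Of the 32 other pathway genes, 9 counted as higher in MEFs (Inhba, Inhbb, Tgfb3, Tgfbr2, Fst, Fstl3, Smad7, Ski and Pmepa1) and 1 as lower (Tgif2), among them Inhba by 5.06 and 5.26 and Fst, which encodes the activin antagonist follistatin, by 3.92 and 4.71.

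Of the 7 genes, Gdf3 had the widest range among the transduced cells. It was at 6.08 on the array labelled Cnot1, 8.0 on Cnot2, 8.08 on Cnot3, 7.23 on Cnot123, 9.51 on Trim28 and 10.19 on Nanog, against 10.21 with empty vector. The Ccr4-Not arrays were all lower than the control, with differences of -4.13 (Cnot1), -2.21 (Cnot2), -2.13 (Cnot3) and -2.98 (Cnot123), while the array labelled Trim28 differed by -0.71 and the array labelled Nanog by -0.02. The dimmer Gdf3 probe set gave -3.48, -2.25, -1.87 and -2.33 on the Ccr4-Not arrays in the same order. With 1 array per condition there is no replicate error and no test.

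The direction of these Gdf3 differences depended on the control. The empty vector array itself was 5.53 above untreated 2B1 and 5.98 above untreated 5C5 in Gdf3 once arrays were centred on their medians. On the dimmer probe set, likewise centred, it was 2.80 and 3.29 above them. Set against untreated 2B1 in that way, Gdf3 was higher on the Ccr4-Not arrays on its brighter probe set, by 1.35 (Cnot1), 3.32 (Cnot2), 3.41 (Cnot3) and 2.54 (Cnot123). On the dimmer probe set the same differences were -0.72, 0.56, 0.95 and 0.47, so the turned direction did not hold for Cnot1. Gdf3 was the only one of 12663 tested genes (0.0079%) in which the empty vector array was at least 5 log2 units above both untreated clones, a threshold chosen after its values were seen, and 15.0% of genes were at least 2-fold from untreated 2B1. Of the transduced arrays, those labelled empty vector and Nanog were the nearest to 5C5 over the genes that separate the clones, and they had the highest Gdf3. Untreated 2B1 and 5C5 had Gdf3 at 4.84 and 4.43. The part of clone identity in the differences was not tested.

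Next to Gdf3 in the RefSeq gene order on chromosome 6 lie Dppa3 and Nanog, both pluripotency genes. On the empty vector array Dppa3 was at 3.91 and Nanog at 4.11, near their levels in untreated 2B1 (4.06 and 3.85) and 5C5 (4.86 and 4.36). In 2i iPSCs Dppa3 was at 6.80 and 7.72, and in ESCs at 9.17 and 7.40. A high Gdf3 thus stood without a high Dppa3 or Nanog on the empty vector array and with both in the pluripotent cells.

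**Figure D4:**
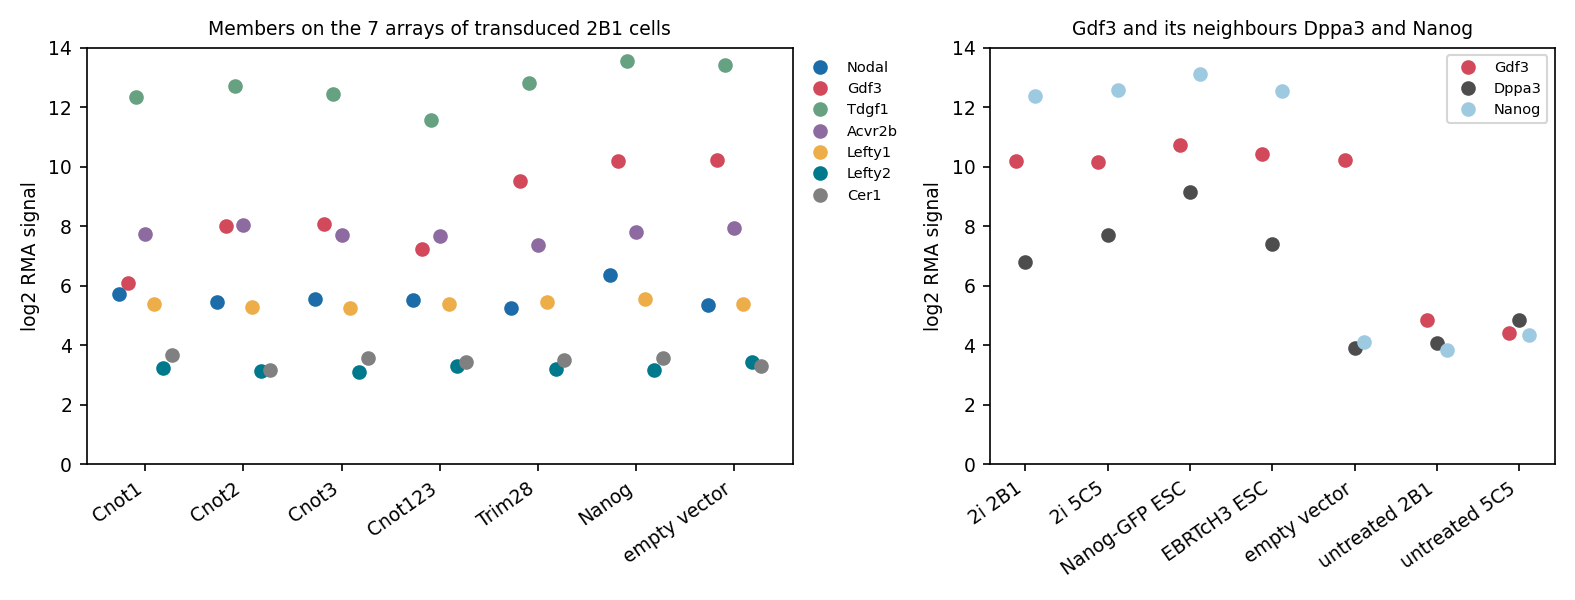
Left, levels of the 7 genes (log2 RMA signal) on the 7 arrays of transduced 2B1 cells, 1 point per gene and array; Gdf3 lies between 6.08 and 8.08 on the Ccr4-Not arrays, against 10.21 with empty vector. Right, Gdf3, Dppa3 and Nanog on the pluripotent arrays, the empty vector array and the untreated clones, with the empty vector array normalized apart from the others; on it Gdf3 is high and Dppa3 and Nanog are low.

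Tdgf1 stayed high on all transduced arrays, at 12.35 (Cnot1), 12.70 (Cnot2), 12.45 (Cnot3), 11.57 (Cnot123), 12.80 (Trim28) and 13.56 (Nanog), against 13.43 with empty vector. The differences were -1.08 for Cnot1 and -1.86 for Cnot123, past 2-fold, and -0.73, -0.98, -0.63 and 0.13 for Cnot2, Cnot3, Trim28 and Nanog. Against untreated 2B1, after centring, Tdgf1 on the array labelled Cnot1 was 0.73 higher. The untreated clones themselves differed by -1.62 in Tdgf1 (2B1 minus 5C5), and the empty vector array was 1.86 above 2B1 and 0.28 above 5C5 after centring.

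Nodal was at 5.72 (Cnot1), 5.46 (Cnot2), 5.54 (Cnot3), 5.51 (Cnot123), 5.27 (Trim28) and 6.36 (Nanog), against 5.35 with empty vector. Only the array labelled Nanog passed 2-fold, at 1.01, while the other Nodal probe set gave 0.24 and the centred difference from untreated 2B1 was -0.32. The empty vector array was itself 1.33 below untreated 2B1 in Nodal (difference -1.33), and the arrays other than Nanog differed from untreated 2B1 by -1.43 to -1.0. Lefty1 lay between 5.25 and 5.55 and Acvr2b between 7.37 and 8.03 on the 7 arrays. Lefty2 and Cer1 were at 3.67 or lower.

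Against empty vector, 2 of the 6 genes (Gdf3 and Tdgf1) were past 2-fold lower and 0 higher on the array labelled Cnot1, where 5.87% of tested genes were lower and 4.15% higher. The same 2 genes were lower on Cnot123, where 8.43% of genes were lower and 3.72% higher. Gdf3 alone was past 2-fold on Cnot2 (3.89% of genes lower, 2.87% higher) and on Cnot3 (5.19% lower, 2.49% higher). On the array labelled Trim28 the count was 0 (1.52% of genes lower, 0.963% higher), and on the array labelled Nanog it was 1, Nodal (0.869% lower, 0.561% higher).

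Of the 32 other pathway genes, Cnot1 and Cnot2 each had 1 past 2-fold higher than empty vector (Foxh1) and 3 lower (Tgfb2, Pcsk6 and Eomes). Cnot3 had 0 higher and 2 lower, Trim28 had 0 and 1, and Nanog had 1 and 0. On Cnot123, 3 were higher (Inhba, Fst and Smurf1) and 6 lower (Inhbb, Tgfb2, Acvr1b, Pcsk6, Eomes and Smad7). The shares of all tested genes are those given above for each array. Tgfb2, a TGF-beta ligand, was at 6.51 (Cnot1), 8.27 (Cnot2), 7.13 (Cnot3), 5.01 (Cnot123), 9.04 (Trim28) and 9.28 (Nanog), against 10.07 with empty vector. This is the order of the Gdf3 levels only in part, since Gdf3 was lowest on Cnot1. Tgfb2 separated the untreated clones too, at 6.07 in 2B1 and 10.11 in 5C5. Eomes, a T-box factor that acts with SMADs downstream of Nodal, was at 3.42 (Cnot1), 5.18 (Cnot2), 6.66 (Cnot3), 4.08 (Cnot123), 7.80 (Trim28) and 10.63 (Nanog), against 7.64 with empty vector. It too differed between the untreated clones, at 4.13 in 2B1 and 6.68 in 5C5, and the array labelled Nanog was the highest of all 14 in Eomes. Foxh1 was 1.51 higher on the array labelled Cnot1 and 1.23 higher on Cnot2 than with empty vector, but differed from untreated 2B1 by 0.37 and 0.14 after centring, where the empty vector array differed by -1.09.

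For each of the 6 tested genes, the genes whose levels ran most like it over the 7 untreated, 2i, MEF and ESC arrays were named by the smallest root mean square difference of mean-centred log2 levels. For Nodal these were Dnmt3b (0.269), Camsap3 (0.349) and Nefh (0.414). For Gdf3 they were Hsf2bp (0.166), Pecam1 (0.366) and Psma8 (0.374). Tdgf1 had looser matches in Fbxo15 (0.597), Fgf4 (0.698) and Pou5f1 (0.723), and Acvr2b had Sinhcaf (0.168), Bag4 (0.175) and Pald1 (0.209). For Lefty1 they were Pnldc1 (0.183), 1700024J04Rik (0.264) and Ly6g6e (0.3), and for Lefty2 Dmc1 (0.243), Gpr160 (0.353) and D1Pas1 (0.371). None of the 7 genes was among the 3 nearest of another. The distances are descriptions over 7 arrays from 4 kinds of culture, and they differ in part because the genes' ranges do.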

How the data were processed

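Gene expression was measured on 14 Affymetrix arrays of 45101 probe sets, 1 array per sample, from TRIzol total RNA labelled as biotinylated cRNA, per the labels. The deposited values are on the log2 scale and were made by the authors with RMA and the affy package, per the submitters' processing notes. The versions of both were not given in the sources used here. RMA corrects background, quantile-normalizes and summarises probes. Sorted values differed by a median range of 0.085 and 0.096 within the 2 blocks of 7 arrays and by 0.318 over all 14. Differences taken across blocks were centred on array medians, and levels quoted side by side across blocks were not.

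The platform's annotation tied 34945 probe sets to 1 gene, 932 to several, and 64 were controls. The brightest probe set on average stood for each of 18193 genes, and 12663 were tested because at least 2 arrays reached the table's median of 5.42. The 3 groups of 2 arrays were compared by limma (version 3.58.1, under R 4.3.3) in 1 fit of 6 arrays with lmFit and eBayes, which had 3 residual degrees of freedom and 2.25 from the prior. Tests were two-sided, with Benjamini-Hochberg adjustment over all tested genes and a call below 0.05. The fit was tested on simulated data. The untreated and 2i arrays are paired by clone (same-clone deviations correlated at 0.11 over 12663 genes), and the clone was a replicate block in an alternative fit of the 4 arrays. Conditions with 1 array were compared by 2-fold differences without a test.

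Named were all 7 genes with every probe set, the called genes of the 46-gene pathway list, and for each gene with a range of at least 2 log2 units the 3 tested genes of most similar level. The members and lists were chosen with earlier results of these data known. Genes around Gdf3 and Lefty1 and marker genes were named as checks. Alternatives changed the array scaling, the filter, the probe set rule, the arrays in the fit, the fold threshold and the control.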

Additional observations from a re-analysis of the deposited data

Results flagged for a closer look

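Tdgf1 moved in opposite directions in the clones under 2i: the 2i array minus the untreated array was 0.77 in clone 2B1 and -0.88 in clone 5C5. Both 2i arrays ended at nearly the same level, 12.50 and 12.47, while the untreated clones were at 11.73 and 13.34. Smurf1, a ubiquitin ligase that acts on SMADs and receptors, also differed in sign between the clones, at -0.54 in 2B1 and 0.54 in 5C5. Each value rests on 1 array against 1, and the difference between the clones was not tested.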

How the results depend on the processing

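Gdf3 kept its direction and call in every alternative of both comparisons with untreated partial iPSCs (4.44 to 5.74 for 2i iPSCs and 4.84 to 6.17 for ESCs). Genes whose main difference was small changed sign: Acvr2b in 2i iPSCs against untreated partial iPSCs was -0.020 with centred arrays and -0.11 without untreated 2B1, between -0.11 and 0.17 over fits that leave out 1 array. Tdgf1 ran from -0.86 to 0.76 over such fits in 2i iPSCs (0.76 without untreated 5C5) and from -0.67 to 0.95 in ESCs (-0.67 without untreated 2B1). With the clone as a replicate block, 4 members passed as higher in place of 3, with 530 genes called higher and 293 lower, and Nodal at an adjusted p of 0.0431. The block changed no other member's call. Leaving out 1 array at a time gave 1 to 3 members higher in 2i iPSCs against untreated partial iPSCs, with 31 to 847 genes called higher and 11 to 549 lower. In ESCs it gave 3 to 4 members, with 289 to 895 genes higher and 491 to 1434 lower, and in 2i iPSCs against ESCs 0 members, with 0 to 694 genes higher and 0 to 92 lower. Fits of the 4 compared arrays alone called 847 genes higher and 549 lower in 2i iPSCs, and 289 and 491 in ESCs, against untreated partial iPSCs. These are the same fits as those without 1 array of the group outside the comparison. With every probe set as a row, 480 were lower in 2i iPSCs, 1224 were higher and 1935 lower in ESCs, and 34 were lower in 2i iPSCs against ESCs. With untreated 2B1 as the control after centring, Gdf3 turned to 1.35 (Cnot1), 3.32 (Cnot2), 3.41 (Cnot3) and 2.54 (Cnot123), Tdgf1 on Cnot1 to 0.73, and Nodal on the array labelled Nanog to -0.32. Members past 2-fold were then 1 higher and 1 lower on Cnot1 and Cnot123, 2 higher and 1 lower on Cnot2 and Trim28, 1 higher and 1 lower on Cnot3, and 2 higher on Nanog. At 1.5-fold, 2 members each were lower on Cnot2, Cnot3 and Trim28. With the mean of a gene's probe sets, 0 members were higher on Nanog. The shares of all tested genes for these fold counts are not given here. Apart from dropped arrays and added rows, the cause was not tested. Groups of 2 arrays limit all tests, and signals near background (such as Cer1, Lefty2 outside pluripotent cells, Tgfb3 in ESCs and Tdgf1 in MEFs) give no reliable fold.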

Other observations

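Inhbb, which encodes the activin B subunit, was at 8.68 and 8.94 in 2i iPSCs, 10.22 and 7.75 in ESCs, 10.28 in MEFs, and 4.57 and 6.28 in untreated partial iPSCs. On this probe set both partial clones lay below every other culture of these 7 arrays, with a difference of 3.38 for 2i iPSCs (SE 0.95, limma adjusted p = 0.11) and 3.56 for ESCs (SE 0.95, adjusted p = 0.0641), neither of which passed. The other Inhbb probe set differed by only 0.35 (adjusted p = 0.329) and 0.52 (adjusted p = 0.117). Pcsk6, which encodes a convertase of Nodal, was at 8.20 and 8.52 in 2i iPSCs, 9.53 and 7.82 in ESCs, 7.38 in MEFs, and 5.80 and 6.87 in untreated partial iPSCs. It was lower than with empty vector on all 4 Ccr4-Not arrays, with differences of -1.84 (Cnot1), -1.48 (Cnot2), -1.38 (Cnot3) and -1.58 (Cnot123). Against untreated 2B1, after centring, the same arrays differed by -0.075, 0.34, 0.44 and 0.23, and the empty vector array by 1.81. These genes were picked from the pathway list after their values were seen.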
